A study of Homo sapiens with 4 samples.

Results

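The 4q22 risk locus for prostate cancer is a stretch of chromosome 4 that holds SMARCAD1, PDLIM5 and BMPR1B. Its peaks were taken by position alone, as every peak that overlapped chr4:95078762-96129599 (hg19), a window of 1051 kb that reaches from 50 kb before the start of SMARCAD1 to 50 kb after the end of BMPR1B. The window held 35 of the 60752 peaks for acetylated lysine 27 of histone H3 (H3K27Ac) in cells given DHT, 27 of the 57623 H3K27Ac peaks in cells given vehicle, and 21 of the 20955 peaks of the transcription factor TCF7L2. The cells were LNCaP, an androgen-sensitive line made from a human prostate cancer. For H3K27Ac they were kept in charcoal-stripped serum, which is low in steroids, and received 10 nM of the androgen dihydrotestosterone (DHT) for 4 h or no DHT (vehicle), both at passage 20. TCF7L2 was measured in cells of passage 15 in serum that was not stripped, so its list is not matched to either H3K27Ac condition. Every condition was measured in 1 library, so no difference between DHT and vehicle had a replicate check and none was tested, and each is a difference between those libraries. LNCaP is a single line, and its results are not a measure of prostate tissue.

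H3K27Ac is placed by histone acetyltransferases at active promoters and enhancers, and is widely used to find them. The androgen receptor is a hormone-activated transcription factor that binds DNA, often far from promoters, once it has bound DHT. TCF7L2 is the factor through which Wnt signals act on genes in many epithelia, and it recognises a short motif that starts with CTTTG. The genes of the window have unlike roles. SMARCAD1 is a chromatin remodeler of the SNF2 family that helps to restore silent chromatin after replication. PDLIM5 is a scaffold of the PDZ-LIM family that joins actin-binding proteins and kinases. BMPR1B is a type I receptor kinase for bone morphogenetic proteins. HPGDS, which lies between SMARCAD1 and PDLIM5, makes prostaglandin D.

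In the GENCODE annotation for this build SMARCAD1 (ENSG00000163104) spans chr4:95128762-95212443, PDLIM5 (ENSG00000163110) chr4:95373008-95589378 and BMPR1B (ENSG00000138696) chr4:95679106-96079599, all on the forward strand. HPGDS (ENSG00000163106) spans chr4:95219686-95264027 on the reverse strand. The start of UNC5C, a netrin receptor gene on the reverse strand, lies outside the window, and the part of the gene inside it held no peak. The lengths were 83.7 kb for SMARCAD1, 44.3 kb for HPGDS, 216 kb for PDLIM5 and 400 kb for BMPR1B. A gap of 109 kb without a protein-coding gene separates HPGDS and PDLIM5, and another of 89.7 kb separates PDLIM5 and BMPR1B. The 200 bases that end just before the earliest annotated start of each gene are printed below on the forward strand from GRCh37, because the members differed in whether H3K27Ac lay there. Capitals mark each CG pair. They are chr4:95128562-95128761 for SMARCAD1, chr4:95372808-95373007 for PDLIM5 and chr4:95678906-95679105 for BMPR1B.
SMARCAD1: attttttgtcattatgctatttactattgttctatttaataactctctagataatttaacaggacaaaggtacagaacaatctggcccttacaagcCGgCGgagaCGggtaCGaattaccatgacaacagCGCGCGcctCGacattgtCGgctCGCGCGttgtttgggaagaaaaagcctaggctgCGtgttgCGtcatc
PDLIM5: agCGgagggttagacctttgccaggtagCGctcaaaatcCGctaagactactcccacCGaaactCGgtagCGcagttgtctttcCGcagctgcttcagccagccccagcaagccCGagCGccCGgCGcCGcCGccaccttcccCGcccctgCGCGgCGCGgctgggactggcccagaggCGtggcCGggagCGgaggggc
BMPR1B: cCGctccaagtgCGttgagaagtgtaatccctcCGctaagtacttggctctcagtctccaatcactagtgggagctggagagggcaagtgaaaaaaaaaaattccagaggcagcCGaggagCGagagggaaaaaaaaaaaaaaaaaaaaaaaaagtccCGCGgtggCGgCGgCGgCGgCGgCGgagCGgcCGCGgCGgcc
These stretches held 14 CG pairs for SMARCAD1, 21 for PDLIM5 and 17 for BMPR1B, against a median of 12 over the same stretch of 20132 protein-coding genes. Their GC content was 45.0% for SMARCAD1, 69.5% for PDLIM5 and 55.5% for BMPR1B. The BMPR1B stretch was thus not poor in CG pairs, although no H3K27Ac peak lay from 1000 bases upstream to 100 bases downstream of any of its 9 annotated starts.

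Heights are the number of sequence tags piled up at a peak as the peak caller gave it. No source used here states that they were scaled to library depth, and the depth is unknown, so a ratio of DHT to vehicle heights is read beside the same ratio over the whole genome. DHT and vehicle peaks that shared at least 1 base were joined into regions, and each region took its tallest peak in each list. Intervals are exact 95% intervals that cover counting error only. A taller peak can come from more cells with the mark or from more of the mark per cell, and these cannot be told apart. A peak that is not in a list was not called, which is not the same as no signal, since the lowest called height was 10 tags in the DHT list and 9 tags in the vehicle list. Promoters of 8 luminal prostate markers had an H3K27Ac peak in both lists, and those of 3 basal markers had one in neither. Of the other cell types, 1 of 3 stromal markers (ACTA2, 22 tags with DHT and 24 with vehicle), 0 of 3 leukocyte markers and both endothelial markers that could be matched had a promoter peak, the last at 47 tags with DHT and 47 with vehicle for CDH5 and 58 with DHT and 40 with vehicle for VWF. At the androgen-induced genes KLK3 and FKBP5 the promoter heights were 148 and 134 tags with DHT, against 10 and 73 tags with vehicle.

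The window was rich in peaks of all 3 lists. It held 33.3 DHT peaks, 25.7 vehicle peaks and 20.0 TCF7L2 peaks per Mb, where chromosome 4 as a whole held 16.6, 16.4 and 6.08 and the genome 19.6, 18.6 and 6.90. DHT peaks of the window ran from 10 to 113 tags with a median of 22 tags, and vehicle peaks from 9 to 116 tags with a median of 20 tags. The medians over the whole lists were 23 tags with DHT and 22 tags with vehicle. The window thus held more peaks per Mb than the genome at about the genome's median height. DHT peaks covered 78.8 kb of it and vehicle peaks 60.4 kb.

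**Figure D1:**
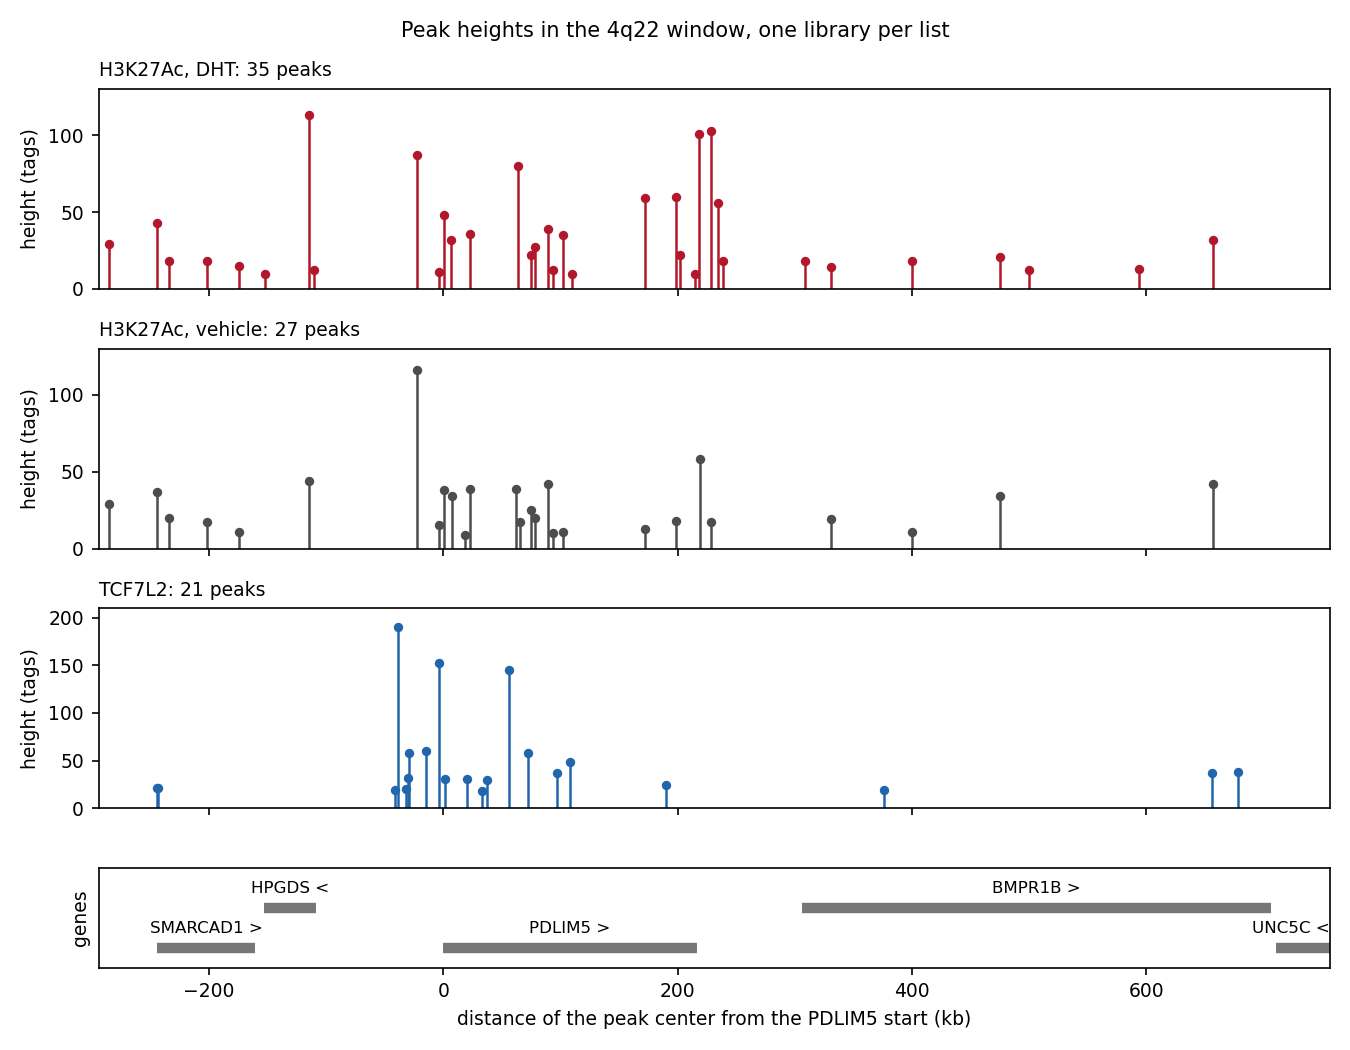
Height in tags (vertical axes) of every DHT, vehicle and TCF7L2 peak of the window against the distance of its center from the PDLIM5 start in kb, with the protein-coding genes below and arrows for their strand. The DHT list has 35 peaks and the vehicle list 27, and the 3 TCF7L2 peaks of 190, 152 and 145 tags lie within 55.8 kb of the PDLIM5 start. BMPR1B has fewer H3K27Ac peaks for its length than PDLIM5 and SMARCAD1.

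The DHT and vehicle peaks joined into 36 regions, of which 25 were in both lists, 10 in the DHT list only and 1 in the vehicle list only. The share in the DHT list only was thus 27.8% in the window, against 15.6% of the 66690 regions of the genome. In the vehicle list only were 10.2% of the genome's regions. Regions in the DHT list only had a median of 12.5 tags in the window and 13 tags in the genome. Both medians are close to the lowest called height of 10 tags. Among the 25 regions in both lists, 14 were taller with DHT, 10 were shorter and 1 was equal. Their median ratio was 1.16, and ratios ran from 0.618 to 6.06. The genome's 49492 regions in both lists had a median of 1.07 and quartiles of 0.879 and 1.28. Of these, 28247 were taller with DHT, 18457 were shorter and 2788 were equal, much the same split as in the window. At least 1.5-fold taller with DHT were 8 of the 25 regions, where the genome's share was 14.6%, and 1 of 25 was at least 1.5-fold taller with vehicle, where the genome's share was 6.7%. At least 3-fold taller with DHT were 4 of 25, beside 1.95% of the genome's regions in both lists. Counts of this size say little on their own, and no difference between the window and the genome was tested.

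**Figure D2:**
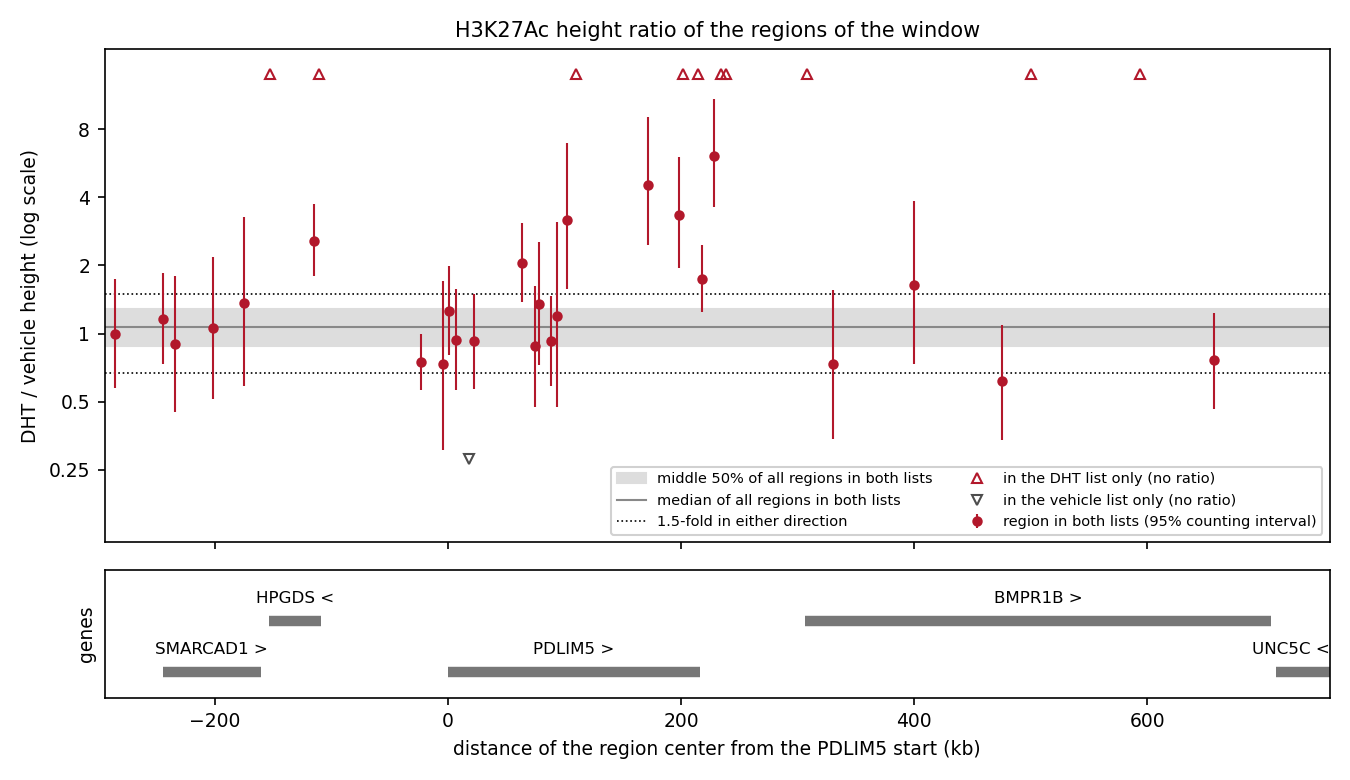
Ratio of DHT to vehicle height (log axis) for each of the 25 regions in both lists against its distance from the PDLIM5 start in kb, with lines for 95% counting intervals, a grey band for the middle 50% of the genome's regions and dotted lines at 1.5-fold. The 3 highest ratios (6.06, 4.54 and 3.33) lie near the end of PDLIM5, where 4 of the 10 regions found in the DHT list only (open triangles, drawn without a ratio) also lie.

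The 3 highest ratios of the window lay in a short stretch around the end of PDLIM5. Within 50 kb of that end, 8 regions spread over 69.3 kb reached from intron 8 of PDLIM5 into a long non-coding RNA gene beyond it (ENSG00000249951, chr4:95596396-95623721), whose function is not given in the annotation. In intron 8 (chr4:95543490-95545949) the height was 59 tags with DHT and 13 tags with vehicle, a ratio of 4.54 (95% interval 2.46 to 9.02). In intron 9 (chr4:95570190-95573219) it was 60 tags with DHT and 18 tags with vehicle, a ratio of 3.33 (1.94 to 6.0). The tallest vehicle peak of the stretch lay just past the last exon (chr4:95589540-95593319), with 101 tags with DHT and 58 tags with vehicle, a ratio of 1.74 (1.25 to 2.45).

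The largest ratio of the window was inside the long non-coding gene. At chr4:95599770-95602979 the height was 103 tags with DHT and 17 tags with vehicle, a ratio of 6.06 (3.61 to 10.8), which put the region at rank 2276 of the DHT list and rank 34491 of the vehicle list. Its neighbor at chr4:95606160-95608559 had 56 tags with DHT and was not called with vehicle. Of the 10384 regions that the genome had in the DHT list only, 48 (0.462%) were as tall as that or taller. The remaining DHT peaks of the stretch had 22, 18 and 10 tags and were not called with vehicle either. All 8 regions of the stretch were therefore either at least 1.5-fold taller with DHT or in the DHT list only. Over the genome, 14.6% of regions in both lists were at least 1.5-fold taller with DHT. The share of all its regions in the DHT list only was 15.6%. Of the other 28 regions of the window 21 were in both lists, with a median ratio of 1.0, and 4 of these were at least 1.5-fold taller with DHT. The stretch was set apart after the heights had been seen, so its uniform direction is partly built into the choice.

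**Figure D3:**
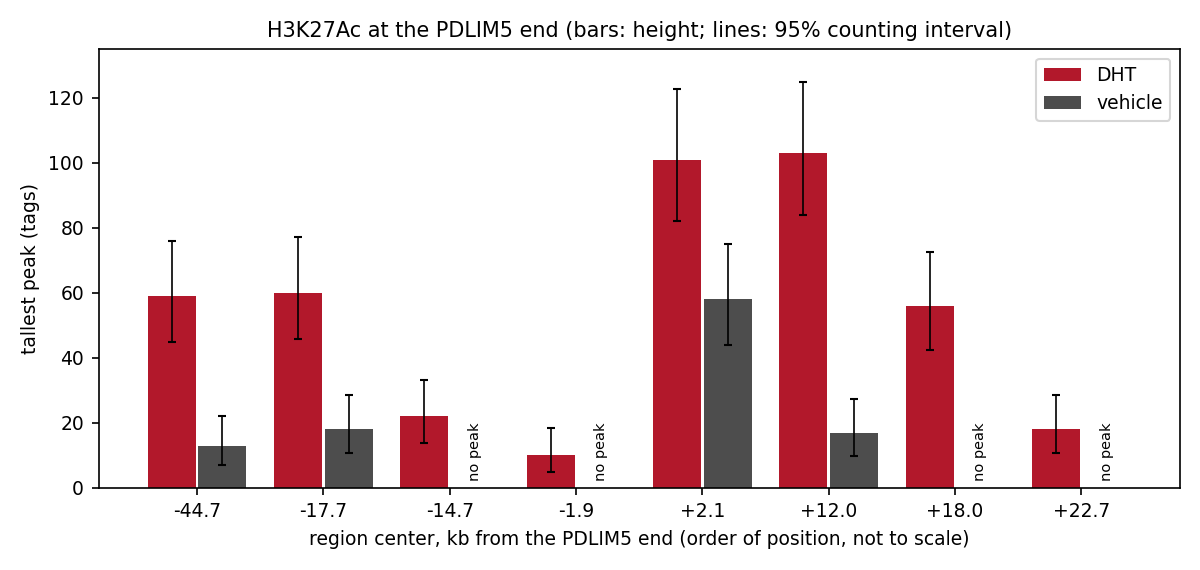
Tallest H3K27Ac peak in tags with DHT (left bars) and with vehicle (right bars) in the 8 regions within 50 kb of the PDLIM5 end, in order of position, with 95% counting intervals. DHT bars exceed vehicle bars in all 8, and 4 regions have no vehicle peak.

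PDLIM5 held regions with and without a difference along its length. Its gene body held 15 regions, of which 11 were in both lists, 3 in the DHT list only and 1 in the vehicle list only. Over the genome 15.6% of regions were in the DHT list only and 10.2% in the vehicle list only. Of the 11 PDLIM5 regions in both lists, 4 were at least 1.5-fold taller with DHT and none was so with vehicle. The genome's shares were 14.6% with DHT and 6.7% with vehicle. The promoter region (chr4:95372460-95375369) had 48 tags with DHT and 38 tags with vehicle, a ratio of 1.26 (0.81 to 1.99), and 3 further regions, 6.84 and 22.3 kb from the start in intron 2 and 88.9 kb from it in intron 3, had 32, 36 and 39 tags with DHT and 34, 39 and 42 tags with vehicle. The only region found in the vehicle list alone, with 9 tags, lay in intron 2. At 63.6 kb from the start a wide region of intron 2 (chr4:95433540-95439779) had 80 tags with DHT and 39 tags with vehicle, a ratio of 2.05 (1.38 to 3.09). There a single DHT peak of 6.24 kb covered 2 separate vehicle peaks of 39 and 17 tags. In intron 3 (chr4:95474280-95476289) the height was 35 tags with DHT and 11 tags with vehicle, a ratio of 3.18 (1.58 to 6.95). The other 3 regions of intron 3 in both lists lay between 12 and 27 tags with DHT and between 10 and 25 tags with vehicle.

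The tallest vehicle peak of the whole window was upstream of PDLIM5 and was not taller with DHT. It lay 22.9 kb before the PDLIM5 start (chr4:95348280-95352029), with 87 tags with DHT and 116 tags with vehicle, a ratio of 0.750 (0.561 to 0.999). It ranked 3944 in the DHT list and 1013 in the vehicle list. A low region 4.08 kb before the start had 11 tags with DHT and 15 tags with vehicle, a difference within counting error. Only the taller of these upstream regions thus had an interval below 1, and only just. The genome's median ratio of 1.07 also lay above that interval.

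The tallest H3K27Ac peak of SMARCAD1 lay at its start in both lists. The promoter region (chr4:95127720-95130029), which covers exon 1 and exon 2 of the reference transcript, had 43 tags with DHT and 37 tags with vehicle, a ratio of 1.16 (0.731 to 1.85). The 3 other regions of the gene had 18, 18 and 15 tags with DHT, against 20, 17 and 11 tags with vehicle. None of the 4 SMARCAD1 regions was 1.5-fold taller in either list, and each interval included a ratio of 1. The genome's shares past that fold were 14.6% with DHT and 6.7% with vehicle. Before the gene, a region 41.4 kb from its start had 29 tags in both lists. HPGDS, the gene that follows, had the tallest DHT peak of the window, 7.08 kb wide over its exon 2 (chr4:95254980-95262059), with 113 tags with DHT and 44 tags with vehicle, a ratio of 2.57 (1.8 to 3.73). Small peaks of 12 and 10 tags in HPGDS were in the DHT list only. The one of 12 tags (chr4:95262240-95263499) began just past the end of the 113-tag peak and was counted as its own region. The 113-tag peak is within 50 kb of SMARCAD1 but lies in HPGDS.

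BMPR1B was the longest of the 3 members and had the fewest H3K27Ac peaks of them for its length. It held 1.74 DHT peaks and 0.996 vehicle peaks per 100 kb, where PDLIM5 had 6.44 and 5.98 and SMARCAD1 4.72 and 4.72. Chromosome 4 as a whole held 16.6 DHT peaks and 16.4 vehicle peaks per Mb. Beside these, BMPR1B was near the chromosome's density with DHT and below it with vehicle. No H3K27Ac and no TCF7L2 peak lay at the BMPR1B promoter. Its nearest peak inside the gene was 2.23 kb after the start, had 18 tags and was in the DHT list only. The tallest BMPR1B peak was in intron 4 (chr4:96028770-96031259), with 32 tags with DHT and 42 tags with vehicle, a ratio of 0.762 (0.466 to 1.24). In intron 2 a region at chr4:95847300-95849399 had 21 tags with DHT and 34 tags with vehicle, a ratio of 0.618 (0.341 to 1.10), the only region of the window at least 1.5-fold taller with vehicle. Intron 1 held one region of 18 tags with DHT and 11 tags with vehicle (1.64, 0.732 to 3.83) and one of 14 tags with DHT and 19 tags with vehicle. BMPR1B held 7 regions, of which 4 were in both lists and 3, of 18, 12 and 13 tags, in the DHT list only. The genome's share in the DHT list only was 15.6%. Of the 4 BMPR1B regions in both lists 3 were lower with DHT, where 18457 of the genome's 49492 such regions were lower. Every BMPR1B interval included 1, and these differences were not detectable at this depth. Summed over all its peaks, BMPR1B had 128 tags with DHT and 106 tags with vehicle, a ratio of 1.21. The direction for BMPR1B thus depends on the measure.

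TCF7L2 followed another layout. Its 21 peaks ran from 18 to 190 tags with a median of 32 tags. The SMARCAD1 start held 2 peaks of 21 tags each, the gap between HPGDS and PDLIM5 held 7 peaks within 37.6 kb, PDLIM5 held 9, and BMPR1B held 3 of 19, 37 and 38 tags. None lay between PDLIM5 and BMPR1B, and none overlapped the 8 H3K27Ac regions near the PDLIM5 end. Of these 8 regions, 4 were in both H3K27Ac lists and 4 in the DHT list only. Of the genome's 49492 H3K27Ac regions in both lists only 5720 held a TCF7L2 peak, so 4 regions without one say little. No such share was taken for regions in the DHT list only. The 3 peaks above 100 tags were all within 55.8 kb of the PDLIM5 start. The tallest had 190 tags, lay 39.2 kb before the start (chr4:95333280-95334599) and ranked 284 in the list. The next had 152 tags, 3.98 kb before the start (chr4:95368740-95369489, rank 730). The third had 145 tags and lay in intron 2 (chr4:95428470-95429219, rank 846).

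TCF7L2 peaks of the window overlapped H3K27Ac about as often as those of the whole list. Of the window's 21 peaks, 6 (28.6%) overlapped a DHT peak, and 33.2% of all TCF7L2 peaks did so. The same 6 overlapped a vehicle peak, beside 32.6% of all TCF7L2 peaks. Of the 3 peaks of at least 100 tags 1 overlapped a DHT peak, where the share over the genome's 2049 peaks of that height was 27.7%. That one, of 152 tags, lay on the low region of 11 tags with DHT and 15 tags with vehicle. The 190-tag peak was 13.9 kb from the nearest DHT peak and the 145-tag peak 4.32 kb. The TCF7L2 list came from cells in other serum, so an overlap does not place both marks in the same cells. The 5 regions in both H3K27Ac lists that held TCF7L2 had a median ratio of 0.923 and the 20 without it a median of 1.27. The genome's medians were 1.10 with TCF7L2 and 1.07 without it. The 20 include the 4 regions in both lists near the PDLIM5 end, with ratios from 1.74 to 6.06. The contrast in the window is thus not separate from that stretch, and it was not tested.

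The 300 bases around the centers of the 3 tall TCF7L2 peaks are printed on the forward strand from GRCh37, because they are the tallest of the window. Capitals mark matches, on either strand, to the TCF7L2 letters CTTTGAT, to their variants CTTTGAA, also CTTTGTT, and also CTTTGTA, or to the FOXA letters TGTTTAC, and their variant TGTTTGC. FOXA factors open chromatin and accompany the androgen receptor in prostate cells. They are chr4:95333790-95334089, chr4:95368965-95369264 and chr4:95428695-95428994, named by height.
190 tags: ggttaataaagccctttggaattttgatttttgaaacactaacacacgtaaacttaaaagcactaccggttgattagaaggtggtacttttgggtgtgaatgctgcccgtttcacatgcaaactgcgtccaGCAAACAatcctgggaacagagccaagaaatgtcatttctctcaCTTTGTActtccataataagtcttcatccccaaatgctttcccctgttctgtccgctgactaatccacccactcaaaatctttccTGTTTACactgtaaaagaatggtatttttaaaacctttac
152 tags: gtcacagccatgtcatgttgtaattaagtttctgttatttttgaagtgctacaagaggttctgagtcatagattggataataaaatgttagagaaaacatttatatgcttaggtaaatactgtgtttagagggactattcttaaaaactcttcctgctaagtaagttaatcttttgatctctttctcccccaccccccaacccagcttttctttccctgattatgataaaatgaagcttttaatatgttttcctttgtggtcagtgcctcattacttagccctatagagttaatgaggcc
145 tags: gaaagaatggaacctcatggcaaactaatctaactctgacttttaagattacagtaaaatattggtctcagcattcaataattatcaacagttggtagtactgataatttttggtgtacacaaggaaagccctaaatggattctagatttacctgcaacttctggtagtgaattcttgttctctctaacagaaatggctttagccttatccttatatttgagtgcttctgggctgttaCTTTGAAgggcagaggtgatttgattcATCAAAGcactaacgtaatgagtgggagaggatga
The 190-tag stretch held 1 TCF7L2 match and 2 FOXA matches, the 145-tag stretch 2 TCF7L2 matches and no FOXA match, and the 152-tag stretch neither. Over all 21 peaks of the window, 10 (47.6%) held a TCF7L2 match in the 300 bases around the center, and 41.0% of all TCF7L2 peaks did. A FOXA match was present in 7 (33.3%), beside 10.8% of all TCF7L2 peaks. The TCF7L2 variant CTTTGTT can run into either FOXA letters on the same strand, and such overlapping matches were present in 0 of the 21 peaks and in 0.558% of all peaks. A match is a description of the letters and not of binding.

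The androgen receptor element was searched as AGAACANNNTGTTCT, which reads the same on both strands, over the whole width of every DHT peak. No window peak held it with at most 1 mismatch in its 12 named letters, and 1.79% of all DHT peaks did. With at most 2 mismatches it was present in 9 of 35 window peaks and in 16.5% of all DHT peaks. Since wide peaks hold more letters, the share was also taken over DHT peaks within 20% of each peak's width. It was present in 5 of the 8 peaks at least 1.5-fold taller with DHT, where peaks of like width had it at a mean of 23.9%, in 3 of the 17 others in both lists (16.8%), and in 1 of the 10 in the DHT list only (10.3%). Of the 5 regions of PDLIM5 and HPGDS at least 1.5-fold taller with DHT, 4 held such a match. The region of 35 tags in intron 3 did not, since its best had 3 mismatches. DHT peaks of like width held a match in 39.8% for the HPGDS peak. The shares were 36.7%, 18.2% and 20.6% for the PDLIM5 peaks of introns 2, 8 and 9. The remaining match among the 8 taller peaks lay in BMPR1B intron 1, in the region of 18 tags with DHT and 11 tags with vehicle. Matches were not particular to taller regions. They also lay in a PDLIM5 intron 2 region of 32 tags with DHT and 34 tags with vehicle. An intron 3 region of 22 tags with DHT and 25 tags with vehicle held one too. Only the matches of the 4 taller regions of PDLIM5 and HPGDS are printed, with 15 bases on each side, forward strand, GRCh37. Capitals mark the letters that match.
HPGDS exon 2 region, chr4:95255577-95255621: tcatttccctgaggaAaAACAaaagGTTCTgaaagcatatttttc
PDLIM5 intron 2 region, chr4:95437288-95437332: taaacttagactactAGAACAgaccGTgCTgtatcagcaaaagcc
PDLIM5 intron 2 region, chr4:95439011-95439055: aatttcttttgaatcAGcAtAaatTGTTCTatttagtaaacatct
PDLIM5 intron 8 region, chr4:95544562-95544606: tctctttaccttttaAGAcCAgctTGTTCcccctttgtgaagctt
PDLIM5 intron 9 region, chr4:95573101-95573145: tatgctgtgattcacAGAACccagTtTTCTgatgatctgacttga
The regions of 101, 103 and 56 tags past the end of PDLIM5, which include the largest ratio of the window, held none with at most 2 mismatches.

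Taken by the tallest peak over each gene and 1 kb upstream of it, the members fell in different places among the 13594 protein-coding genes with a peak in both lists, whose median ratio was 1.11. PDLIM5 had 80 tags with DHT and 42 tags with vehicle, a ratio of 1.90 (1.3 to 2.84), and 3.60% of those genes had a higher ratio. SMARCAD1 had 43 tags with DHT and 37 tags with vehicle, and BMPR1B had 32 tags with DHT and 42 tags with vehicle. At least 1.5-fold taller with DHT were 8.72% of the genes, and 1.87% were at least 1.5-fold taller with vehicle. With these gene edges PDLIM5 was the only member past 1.5-fold, and the intervals of SMARCAD1 and BMPR1B both included 1. The call depends on the edges. With 50 kb on both sides the ratio was 0.888 for PDLIM5, which takes in the upstream peak of 116 vehicle tags, and 2.57 for SMARCAD1, which takes in the HPGDS peak, and at promoters alone it was 1.26 for PDLIM5. The PDLIM5 value compares different places, since its tallest DHT peak was in intron 2 and its tallest vehicle peak in intron 3.

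**Figure D4:**
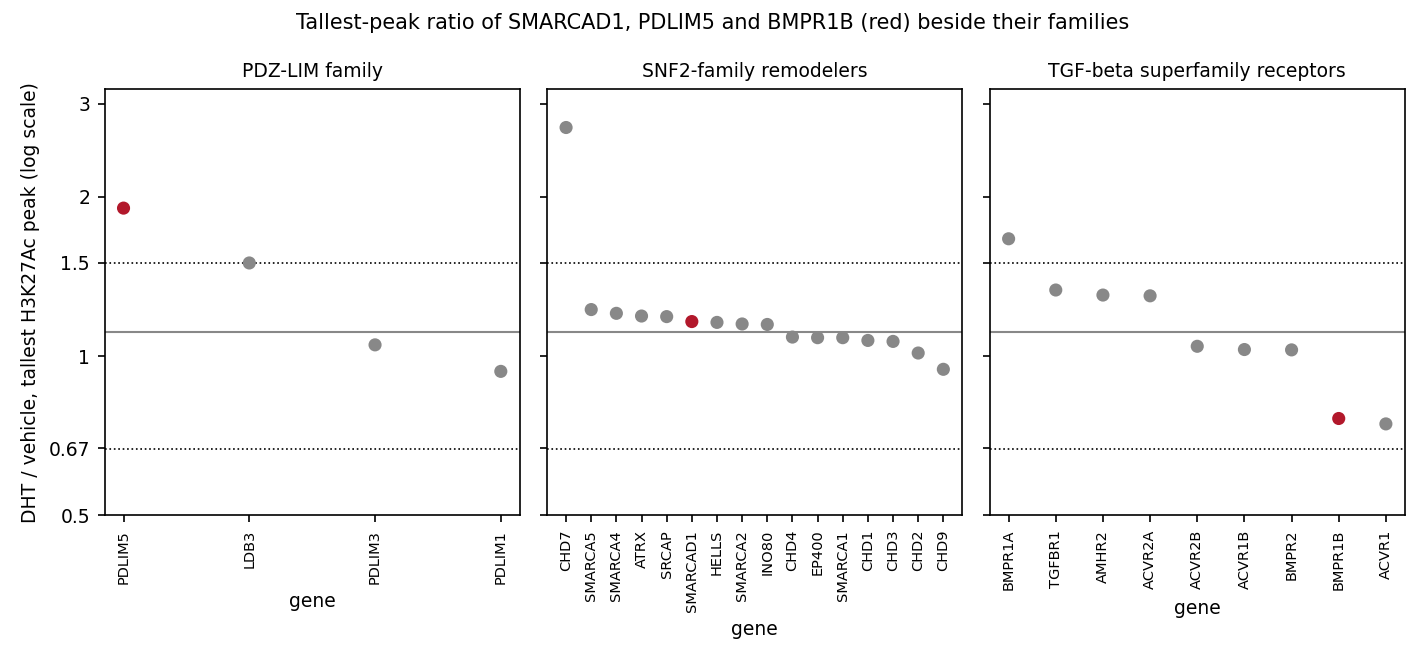
Ratio of the tallest DHT peak to the tallest vehicle peak (log axis) for the PDZ-LIM, SNF2 and TGF-beta superfamily receptor genes that have a peak in both lists, with PDLIM5, SMARCAD1 and BMPR1B in red, a grey line at 1.11 for the median of all genes and dotted lines at 1.5-fold in either direction. PDLIM5 is highest in its family, SMARCAD1 lies in the middle of its own and BMPR1B is next to the lowest.

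The families of the members gave a frame for these values. Of all 20136 protein-coding genes, 13594 had a peak in both lists, with a median ratio of 1.11. Of 7 PDZ-LIM genes 4 had a peak in both lists, with a median ratio of 1.28. PDLIM5 and LDB3, a scaffold of the muscle Z-disc with 18 tags with DHT and 12 tags with vehicle, reached 1.5-fold, and the lowest was PDLIM1 at 29 tags with DHT and 31 tags with vehicle. Of 16 SNF2 genes all had a peak in both lists, with a median of 1.15. CHD7, a chromodomain remodeler, was the only one past 1.5-fold, at 46 tags with DHT and 17 tags with vehicle, and CHD9 was lowest at 101 tags with DHT and 107 tags with vehicle. Of 12 receptors of the TGF-beta superfamily 9 had a peak in both lists, with a median of 1.04. BMPR1A, the nearest relative of BMPR1B, was at 65 tags with DHT and 39 tags with vehicle, and ACVR1 was lowest at 32 tags with DHT and 43 tags with vehicle. No gene of the 3 families reached 1.5-fold towards vehicle. Among all protein-coding genes with a peak in both lists, 8.72% reached 1.5-fold with DHT and 1.87% with vehicle. TCF7L2 peaks lay over 5 of the 7 PDZ-LIM genes, 10 of the 16 SNF2 genes and 8 of the 12 receptors, beside 35.1% of all protein-coding genes. PDLIM5 had the tallest of the PDZ-LIM family at 145 tags, where PDLIM3 had 77 tags.

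Genes most like each member were taken as the 2 nearest by the tallest DHT, vehicle and TCF7L2 heights on a log2 scale over the 3 lists, among 6179 genes with a peak in each. Nearest to PDLIM5 were OLA1, an ATPase, with 91 tags with DHT, 45 tags with vehicle and 151 tags for TCF7L2, and NUDT13 with 69, 42 and 130 tags. Nearest to SMARCAD1 were CCNB2, the mitotic cyclin B2, with the same 3 heights as SMARCAD1, and BNIP1 with 44, 36 and 21 tags. Nearest to BMPR1B were IQCM with 31, 42 and 40 tags and HPS3 with 29, 45 and 39 tags. With 3 lists this likeness rests on 3 values per gene.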

How the data were processed

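The authors called peaks on hg19 with Sole-search, separately for each library (H3K27Ac with DHT, H3K27Ac with vehicle, TCF7L2), with a lower false discovery rate in the H3K27Ac lists. An input library was not analysed here. The study names Bowtie 2 for H3K27Ac and ELAND for TCF7L2, the submitters' processing notes CASAVA 1.8.2, Bowtie2 and BWA, so the aligner is not settled. The deposited signal is the pileup height of a peak in tags. Scaling to depth is not given in the sources used here.

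Coordinates were used as deposited with GRCh37 and GENCODE v44lift37. Peaks were joined at an overlap of 1 bp. Heights were given exact Poisson intervals and ratios Clopper-Pearson intervals (Python 3.11.15, pandas 2.3.3, scipy 1.17.1), and the code was tested on simulated data. No p-value was computed. A gene took its tallest peak from 1 kb upstream to its end. Named are the 3 members, HPGDS, family genes past 1.5-fold and the lowest, the 2 nearest genes, and markers. PDLIM3 was named after its value was seen. Members, lists and thresholds were chosen with earlier results of these data known. The 3-fold threshold, the 100-tag limit and the stretch around the PDLIM5 end were chosen after seeing the data. Alternatives were the 25000 tallest H3K27Ac peaks, peaks of at least 20 tags, 50% overlap, other gene edges, summed heights, scaling by the genome median ratio, and the 15000 tallest TCF7L2 peaks.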

Additional observations from a re-analysis of the deposited data

How the results depend on the processing

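Of 52 alternative values for 11 results, 42 stayed within the interval or 1.5-fold range of the reported value, 9 moved and 1 reversed. Restricting both lists to the 25000 tallest peaks left 11 regions in both lists, 5 in the DHT list only, 3 at least 1.5-fold taller with DHT and 0 with vehicle. Restricting them to peaks of at least 20 tags left 14, 6, 3 and 1. These limits remove low vehicle peaks, so regions with the largest ratios then count as DHT only. The median ratio was 1.0 under the limit of 25000 peaks and 0.971 under that of 20 tags, against 1.16 over all peaks. With 50 kb on both sides the SMARCAD1 ratio was 2.57, since the HPGDS peak entered, and the PDLIM5 ratio reversed to 0.888, since the upstream vehicle peak of 116 tags entered. The PDLIM5 ratio at promoters only was 1.26. The BMPR1B ratio was 0.762 by the tallest peak and 1.21 by summed heights. The second lies within the interval of the first but on the other side of 1. An overlap of 50%, the window without its flanks and scaling by the genome median ratio moved no result out of its range.

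No paired analysis was possible because each condition has 1 library, and there was no replicate to leave out. BMPR1B has no promoter peak and so no promoter value, and the center rule does not apply to the number of TCF7L2 peaks. Depth is unknown, and counting intervals are wide for regions under about 20 tags.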
